A study of Drosophila melanogaster with 4 samples.

Results

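Male fly heads were compared at 30 and 3 days of age through every small RNA sequence with at least 100 reads in the 2 untreated libraries together. This minimum was met by 870 of the 4945 distinct sequences in these libraries, and the 870 made up 99.8% of the 30-day library and 99.9% of the 3-day library. The flies were wild-type males of the genotype labelled 5905, raised at 25 ˚C and aged as whole flies. Small RNA libraries were made from head RNA that had not been oxidized, with 1 library at 30 days (17345816 reads) and 1 library at 3 days (16112748 reads). A further library at each age came from RNA that was oxidized and β-eliminated, which favours RNAs with a blocked 3′ end. Those 2 libraries (12105527 reads at 30 days and 2091252 at 3 days) served only as a second look at the same age difference. Ages follow the titles and descriptions of the libraries. The age characteristic contradicts them for the 30-day untreated and the 3-day oxidized library, so the library labelled 30 days is meant wherever that age is named.

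With 1 library per group there is no replicate check, and age and library cannot be told apart. The sources used here do not say how many heads went into a library. Intervals below are exact Clopper-Pearson 95% intervals and cover counting error only. A sequence or arm is called higher or lower when its level at 30 days differs from that at 3 days by 2-fold or more. Levels are RPM, reads scaled so that each library sums to 1000000, and 3 reads, the limit that a count of 0 allows, equal 0.173 RPM at 30 days and 0.186 RPM at 3 days. All 870 sequences had reads at both ages.

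MicroRNAs are short RNAs cut from hairpin precursors by Drosha and Dicer enzymes. Each side of the hairpin can give a mature product, here called an arm (5p or 3p). Loaded on an Argonaute protein, the miRNA finds its target mRNAs mainly through its seed, bases 2 to 8 counted from the 5′ end, so a changed 5′ start changes the targets whereas a changed 3′ end leaves the seed as it is. In flies the exonuclease Nibbler shortens the 3′ ends of a subset of miRNAs, miR-34 being its best known substrate, and the methyltransferase Hen1 protects 3′ ends of small RNAs on the Argonaute protein AGO2. The same miRNA therefore occurs as a family of isoforms with one start and several ends, and each isoform was counted separately. An isoform is named by its arm and length, with its start where that differs from the arm's most abundant start.

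The sequences below are the most abundant forms of the arms on which the results turn, copied from the deposited tables as DNA letters with the seed in capitals. They are shown so that shared seeds and the 3′ ends discussed later can be read directly. The miR-34 cluster is given first.
miR-34-5p: tGGCAGTGtggttagctggtt
miR-277-3p: tAAATGCActatctggtacgac
miR-317-3p: tGAACACAgctggtggtatcc
The pair miR-276a-3p and miR-276b-3p shares its seed.
miR-276a-3p: tAGGAACTtcataccgtgctct
miR-276b-3p: tAGGAACTtaataccgtgctct
Of the K box family, which represses Notch target genes in flies, 3 members with the same seed are shown.
miR-13a-3p: tATCACAGccattttgatgagt
miR-2b-3p: tATCACAGccagctttgaggag
miR-11-3p: cATCACAGtctgagttcttgct
The miR-9 family is represented by a pair with the same seed.
miR-9a-5p: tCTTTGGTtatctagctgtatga
miR-9c-5p: tCTTTGGTattctagctgtag
The remaining arms each have a seed of their own in this set.
bantam-3p: tGAGATCAttttgaaagctgatt
miR-210-3p: cTTGTGCGtgtgacagcggct
miR-999-3p: tGTTAACTgtaagactgtgtct
miR-957-3p: tGAAACCGtccaaaactgaggc
miR-316-5p: tGTCTTTTtccgcttactggc
miR-932-5p: tCAATTCCgtagtgcattgcagt
miR-981-3p: tTCGTTGTcgacgaaacctgca
miR-133-3p: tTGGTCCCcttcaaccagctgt
miR-124-3p: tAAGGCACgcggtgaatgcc

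Of the 870 sequences 222 were called higher at 30 days (25.5%) and 46 were called lower (5.29%). The median ratio was 0.25 on the log2 scale. The sign of that median depends on the scaling: trimmed means of M values (TMM) shift every ratio by -0.31 and median-of-ratios scaling by -0.26, which puts the median just under 0. The balance of calls depends on it too, since 157 sequences were called higher and 111 lower with TMM, and 165 higher and 99 lower with median-of-ratios scaling. The counting interval excluded a ratio of 1 for 690 sequences and held it for 180. It lay wholly beyond 2-fold for 161 of the higher and 27 of the lower calls, and reached inside 2-fold for the other 61 and 19. Near the 100-read minimum, the 29 sequences with 100 to 109 reads had a median log2 ratio of 0.094, and the 29 with 90 to 99 reads that were left out had 0.13.

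Of the 10 most abundant single sequences 1 was called higher and 0 lower. The 23-nt form of miR-8-3p, the fly member of the miR-200 family, had 131559 RPM at 30 days and 121345 RPM at 3 days. The 20-nt form of miR-14-3p, a miRNA known in flies for fat metabolism and for limiting cell death, had 142452 RPM at 30 days against 51552 RPM at 3 days. It was 2.76-fold higher (log2 1.47, interval 1.46 to 1.47) and was the most abundant sequence of the 30-day library. The other 8 of the 10 most abundant sequences had log2 ratios between -0.84 and 0.39. The 22-nt form of miR-276a-3p, which acts in olfactory memory in flies, had 70820 RPM at 30 days and 116120 RPM at 3 days. The 22-nt form of miR-276b-3p had 31051 RPM at 30 days and 50025 RPM at 3 days. The 22-nt form of miR-999-3p had 26389 RPM at 30 days and 47204 RPM at 3 days. For bantam-3p, a growth-promoting miRNA that blocks the death gene hid, the 23-nt form had 43061 RPM at 30 days and 59676 RPM at 3 days, while its 22-nt form differed little, with 28172 RPM at 30 days and 29239 RPM at 3 days. Of miR-317-3p the 21-nt form had 36320 RPM at 30 days and 39315 RPM at 3 days, and the 24-nt form 20328 RPM at 30 days and 34715 RPM at 3 days. In bantam-3p and in miR-317-3p the longer form thus had the lower ratio.

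Over all 870 sequences the changes differed by read length. Sequences of 16 to 20 nt had a median log2 ratio of 1.08, and 189 of 354 were called higher at 30 days against 7 called lower. Sequences of 22 to 23 nt had a median of -0.16, with 9 of 282 called higher and 28 called lower. By single length the medians were 0.76 at 16 nt, 1.16 at 17 nt, 1.05 at 18 nt, 1.33 at 19 nt, 0.76 at 20 nt, 0.15 at 21 nt, -0.16 at 22 nt, -0.17 at 23 nt and 0.10 at 24 nt. The peak was thus at 19 nt, and the forms longer than 23 nt stood between the short forms and those of 22 to 23 nt. The gap between short and long forms does not depend on the scaling, which moves all lengths alike.

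**Figure D1:**
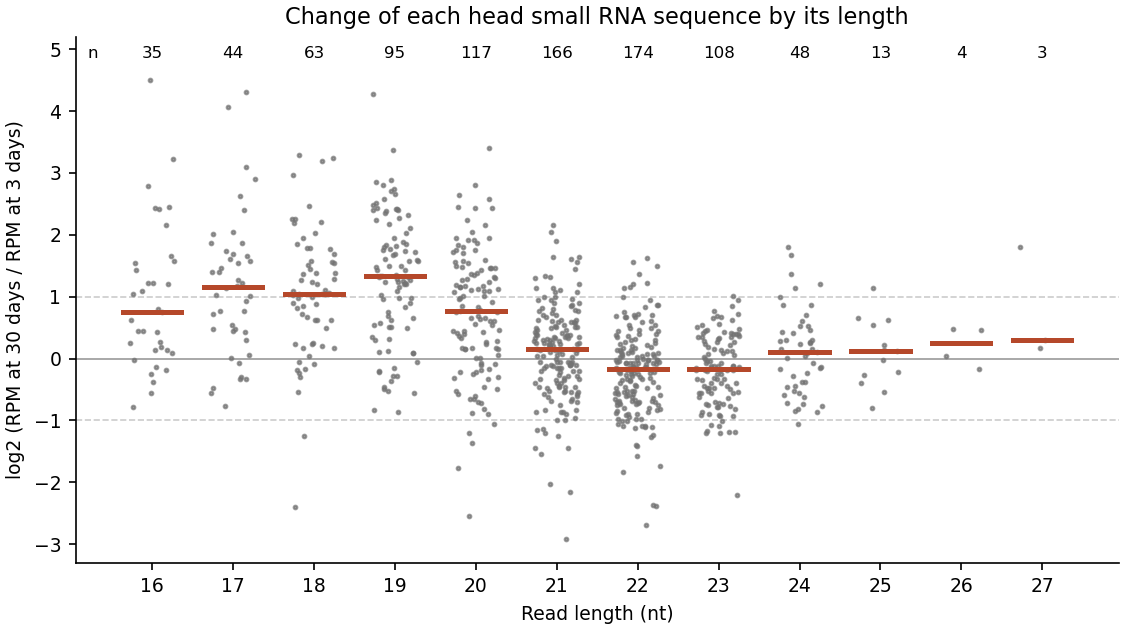
Each point is 1 of the 870 sequences, placed by its read length in nt (horizontal, with a small random offset) and by the log2 ratio of its RPM at 30 days over 3 days (vertical); red bars are medians and dashed lines mark 2-fold. The medians run from 0.76 at 16 nt through 1.33 at 19 nt down to -0.17 at 23 nt.

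The reads of the libraries showed the same order. Members of 20 nt took 19.8% of the 30-day library and 8.74% of the 3-day library, and members of 19 nt took 1.28% at 30 days and 0.405% at 3 days. For members of 22 nt the shares were 29.2% at 30 days and 42.3% at 3 days. A single sequence, the 20-nt form of miR-14-3p, made up most of the 20-nt class, and without it the class held 5.51% at 30 days and 3.59% at 3 days. The mean read length was 21.63 nt at 30 days and 21.98 nt at 3 days. With miR-14-3p and miR-263a-5p left out it was 21.88 nt at 30 days and 22.07 nt at 3 days.

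**Figure D2:**
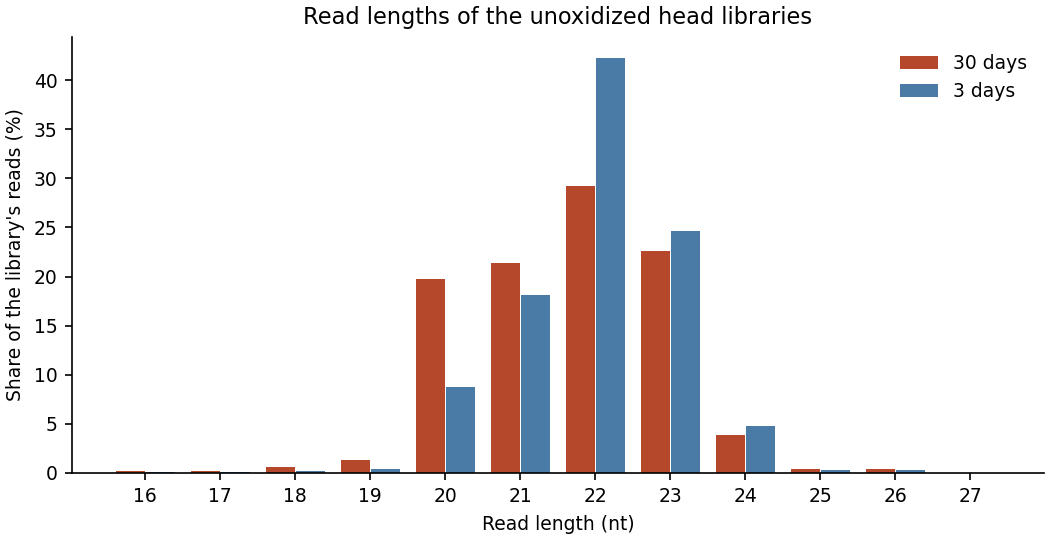
Bars give the share of each unoxidized library's reads (percent) that member sequences of each read length (nt) hold, red for 30 days and blue for 3 days. The 20-nt bar reaches 19.8% at 30 days and 8.74% at 3 days, and the 22-nt bar 29.2% at 30 days and 42.3% at 3 days.

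The short forms were mostly truncated versions of a longer sequence of their own arm. Each of 867 sequences was placed on 1 of 169 arms and set against the most abundant sequence of that arm, a comparison in which any scaling cancels. Of 325 sequences that shared the start of that sequence but ended earlier, 288 had a higher age ratio than it, with a median difference of 0.77 on the log2 scale. These forms took 17.7% of the 30-day library and 12.6% of the 3-day library. By the number of bases missing from the 3′ end the median difference was 0.42 for 1 base (88 of 107 above the arm's most abundant sequence), 1.05 for 2 bases (75 of 83), 1.38 for 3 bases (54 of 58), 1.01 for 4 bases (36 of 40) and 1.14 for 5 bases (21 of 23). Forms with a longer 3′ end did not share this direction: 62 of 141 were above the most abundant sequence, and the median difference was -0.10.

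Forms that lacked bases at the 5′ start and kept the 3′ end also stood higher. Of 111 such sequences 97 were above the most abundant sequence of their arm, with a median difference of 0.52. They were scarce, taking 1.52% of the 30-day library and 1.45% of the 3-day library. Truncation at either end therefore went with a higher ratio in these libraries. Whether the quality of the RNA had a part in this was not tested. The 2 largest ratios among sequences with at least 1000 reads were of this kind. The 16-nt form of miR-8-3p that begins 7 bases late had 7249 reads at 30 days and 299 at 3 days, a 22.5-fold difference (log2 4.49, interval 4.33 to 4.66). The 17-nt form that begins 6 bases late had 4015 reads at 30 days and 222 at 3 days (16.8-fold). In the oxidized pair the 16-nt form had 24.9 RPM at 30 days and 25.8 RPM at 3 days, while the 23-nt form of the arm had 32039 RPM at 30 days and 46326 RPM at 3 days. Relative to the 23-nt form the log2 difference after oxidation was 0.48 for the 16-nt form and -0.11 for the 17-nt form. Without miR-8-3p the median of the 5′-truncated forms was 0.50, with 90 of 104 above. Their share of reads was then not larger at 30 days, at 1.40% of the 30-day library and 1.42% of the 3-day library.

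**Figure D3:**
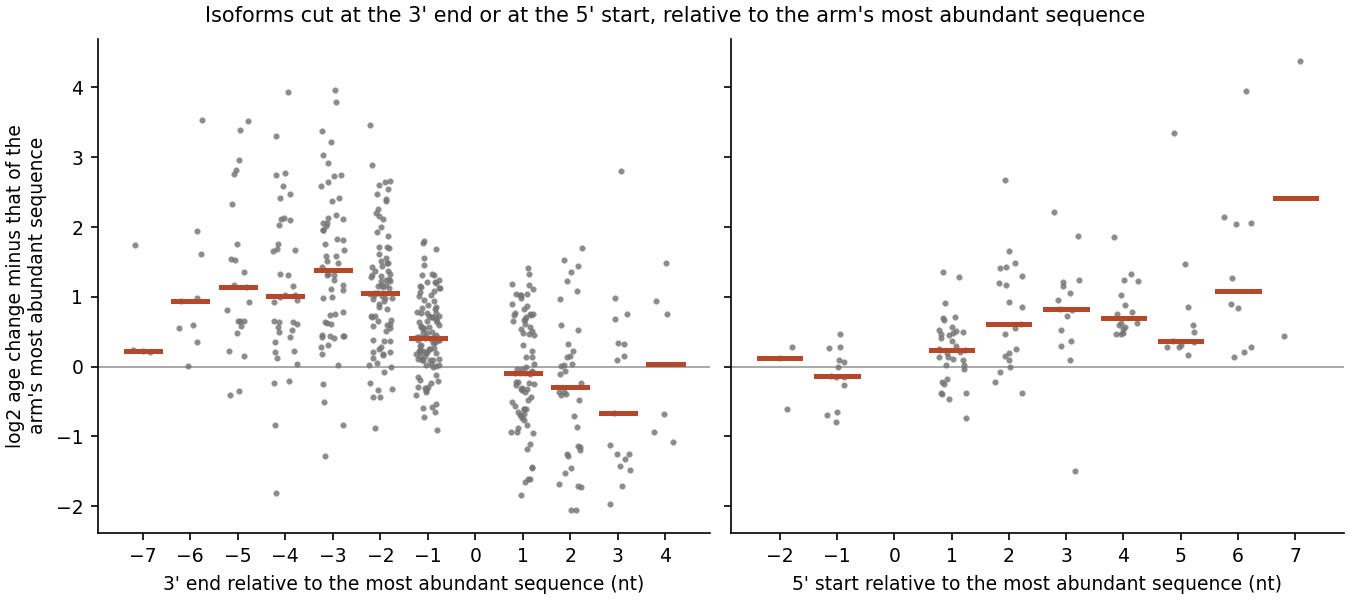
Each point is a sequence that differs from the most abundant sequence of its arm in its 3′ end alone (left) or its 5′ start alone (right), in nt; the vertical axis gives its log2 age ratio minus that of the most abundant sequence, and red bars are medians. With 3 bases missing at the 3′ end the median is 1.38, and with 3 bases added it is -0.66.

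Within arms, 102 arms had at least 1000 reads in each library, and 96 of them could be named. The distribution of read lengths shifted by at least 10 percentage points (the points that moved between classes) in 50 arms (49.0%), and that of 3′ ends in 49 (48.0%). In 46 of these 50 the mean length was shorter at 30 days. Over all 102 arms the mean length was shorter in 85 (83.3%), with a median difference of -0.13 nt and a range from -1.37 to 0.31 nt. The mean 3′ end lay earlier in 86. By abundance, 46 of the 51 arms with most reads and 39 of the other 51 were shorter. Among named arms 38 of 45 3p arms and 42 of 51 5p arms were shorter.

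Several arms, among them those with the largest shifts, had a larger share of a form of 18 to 20 nt at 30 days and a smaller share of forms of 22 to 23 nt. Of these, 6 are shown, each as its long form, with the bases missing from the short form in capitals, and as the short form.
miR-34-5p 22 nt: tggcagtgtggttagctgGTTG
miR-34-5p 18 nt: tggcagtgtggttagctg
miR-316-5p 22 nt: tgtctttttccgcttactgGCG
miR-316-5p 19 nt: tgtctttttccgcttactg
miR-932-5p 23 nt: tcaattccgtagtgcattgCAGT
miR-932-5p 19 nt: tcaattccgtagtgcattg
miR-277-3p 23 nt: taaatgcactatctggtacgACA
miR-277-3p 20 nt: taaatgcactatctggtacg
miR-957-3p 22 nt: tgaaaccgtccaaaactgaGGC
miR-957-3p 19 nt: tgaaaccgtccaaaactga
miR-133-3p 22 nt: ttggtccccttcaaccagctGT
miR-133-3p 20 nt: ttggtccccttcaaccagct

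miR-34-5p, which in flies is needed to keep the ageing brain intact, lies in the miR-34 cluster (hairpin at chromosome 3R, 10100936 to 10101034, plus strand, BDGP6, in an exon of the long non-coding RNA CR43459). Its 18-nt form had 2695 RPM at 30 days and 296 RPM at 3 days, 9.10-fold higher (log2 3.19, interval 3.14 to 3.23). Reads of 18 nt made up 45.6% of the arm at 30 days (interval 45.3 to 45.9) and 13.1% at 3 days (12.8 to 13.5). The 21-nt form was also higher, with 2346 RPM at 30 days and 1116 RPM at 3 days, whereas the 22-nt form had 362 RPM at 30 days and 526 RPM at 3 days. Forms of 19 and 20 nt stayed scarce at both ages, so the distribution had separate peaks at 18 and 21 nt. The mean length of the arm was 19.7 nt at 30 days and 21.1 nt at 3 days, the largest difference of the 102 arms.

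miR-316-5p (chromosome 3L, 21668714 to 21668802, minus strand, in an exon of the long non-coding RNA CR45920) had the largest shift in shares, 34.8 points. Reads of 19 nt were 43.1% of the arm at 30 days (42.0 to 44.3) and 9.80% at 3 days (9.06 to 10.6), and reads of 22 nt were 17.6% at 30 days and 42.8% at 3 days. Its total level differed little, with 433 RPM at 30 days and 371 RPM at 3 days. For miR-932-5p (chromosome 2L, 6902062 to 6902152, plus strand, in an intron of Nlg2, which encodes the synaptic adhesion protein neuroligin 2) reads of 19 nt were 29.5% at 30 days and 5.03% at 3 days. Its 23-nt reads were 30.4% at 30 days and 51.1% at 3 days, and its mean length was 21.03 nt at 30 days and 22.15 nt at 3 days. In both arms the share of the short form was larger and that of the long forms smaller, while the arm total stayed within 1.17-fold.

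miR-277-3p (chromosome 3R, 10100022 to 10100121, plus strand), which represses genes of branched-chain amino acid breakdown in flies, showed the pattern at a high level. Its 20-nt form had 4877 RPM at 30 days and 817 RPM at 3 days (5.97-fold) and its 19-nt form 420 RPM at 30 days and 66.5 RPM at 3 days (6.31-fold). The 23-nt form had 9122 RPM at 30 days and 13393 RPM at 3 days. The arm total was nearly equal, at 37393 RPM at 30 days and 37323 RPM at 3 days. miR-957-3p (chromosome 3L, 22518196 to 22518291, minus strand, no host gene) combined a lower total with a higher short form. Its 22-nt form had 12772 RPM at 30 days and 27762 RPM at 3 days, and its 19-nt form had 1282 RPM at 30 days and 178 RPM at 3 days (7.21-fold). Among isoforms of miR-133-3p (chromosome 2L, 20616617 to 20616714, plus strand), a muscle miRNA, the 20-nt form had 299 RPM at 30 days and 42.7 RPM at 3 days (6.998-fold). Its 22-nt form had 3188 RPM at 30 days and 5042 RPM at 3 days, so 2 missing bases separated forms that moved in opposite directions.

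**Figure D4:**
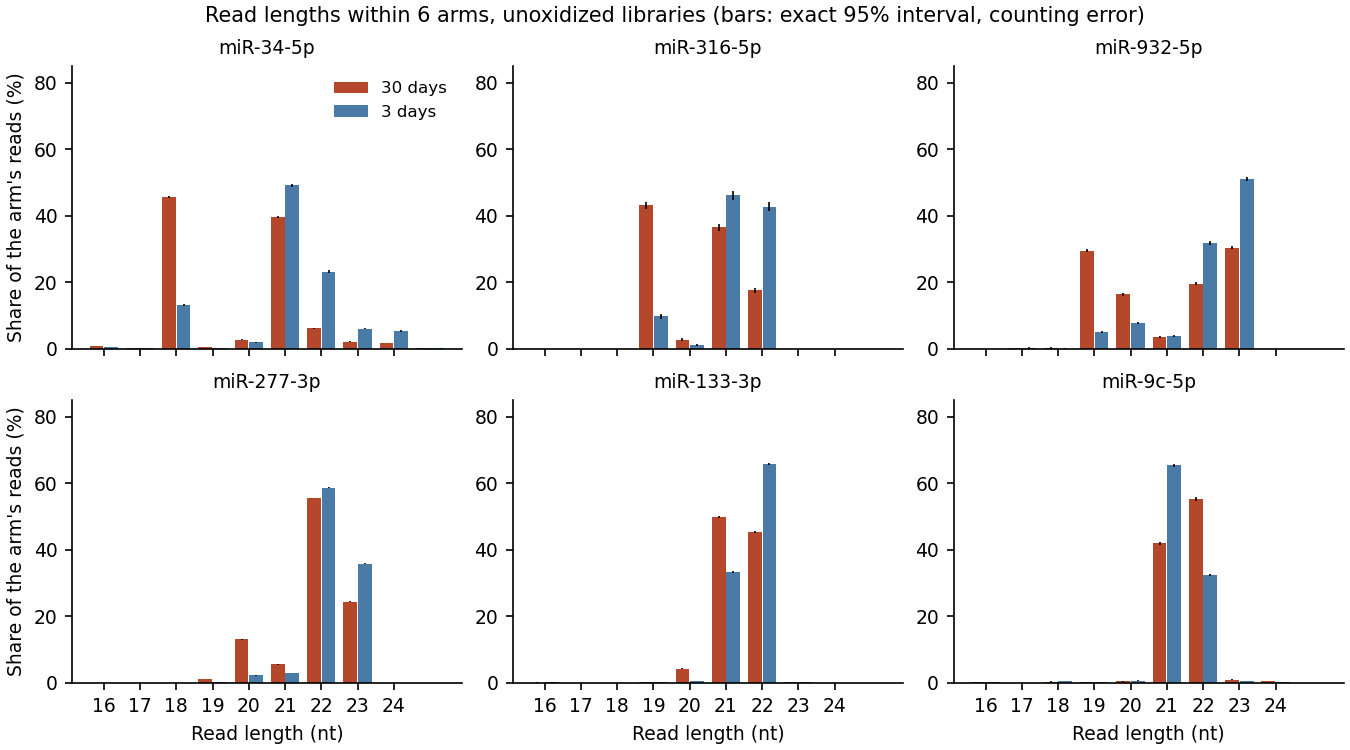
Bars give the share of an arm's reads (percent) at each read length (nt) for 6 arms, red for 30 days and blue for 3 days, with exact 95% intervals for counting error. In miR-34-5p the 18-nt bar is 45.6% at 30 days and 13.1% at 3 days; in miR-9c-5p the 22-nt bar is 55.3% at 30 days and 32.5% at 3 days.

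The other arms among the 8 with the largest shifts were miR-13a-3p of the K box family (mean length 20.9 nt at 30 days and 21.9 nt at 3 days), miR-276-5p (20.03 nt at 30 days and 21.02 nt at 3 days), miR-13b-3p (21.1 nt at 30 days and 21.8 nt at 3 days), miR-981-3p (20.8 nt at 30 days and 21.4 nt at 3 days) and the neuronal miR-124-3p (20.3 nt at 30 days and 20.6 nt at 3 days). In miR-124-3p the 20-nt form had 716 RPM at 30 days and 490 RPM at 3 days. miR-276-5p is the passenger arm of 2 hairpins and its reads cannot be assigned to either. Among sequences with at least 1000 reads, the highest ratio of a 3′-truncated form was that of the 20-nt form of miR-987-5p, with 116 RPM at 30 days and 10.9 RPM at 3 days (10.6-fold).

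Within single arms the isoforms spread widely. Among arms with several sequences of at least 1000 reads, the span between the lowest and the highest log2 ratio was 4.38 in miR-8-3p, 4.31 in miR-987-5p, 4.04 in miR-957-3p, 4.02 in miR-317-3p, 3.72 in miR-34-5p, 3.65 in miR-184-3p, 3.47 in miR-133-3p and 3.42 in miR-316-5p. In miR-317-3p the highest was a 16-nt form that begins 5 bases late (56.4 RPM at 30 days and 6.02 RPM at 3 days) and the lowest a 25-nt form. In 11 of the 169 arms some isoforms were called higher and others lower. Summing forms of 16 to 20 nt and forms of 22 nt or more separately gave values for 75 arms. The short sum had the higher ratio in 64 of them, with a median difference of 1.38. Of the short sums 39 were called higher and 4 lower, against 1 higher and 8 lower among the long sums.

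A minority of arms went the other way. miR-9c-5p (chromosome 2L, 16697924 to 16698015, plus strand, in an intron of grp) was longer at 30 days, with 22-nt reads at 55.3% of the arm at 30 days (54.8 to 55.8) and 32.5% at 3 days (32.1 to 32.8). The forms differed in that the 21-nt form had 888 RPM at 30 days and 2409 RPM at 3 days (2.71-fold lower), while the 22-nt form had 1168 RPM at 30 days and 1191 RPM at 3 days. miR-998-5p, from an intron of E2f1, had an 18-nt form at 11.2 RPM at 30 days and 59.2 RPM at 3 days (5.27-fold lower), and its mean length was 21.4 nt at 30 days and 21.1 nt at 3 days. Among the highly expressed arms miR-263a-5p had a mean length of 23.5 nt at 30 days and 23.3 nt at 3 days. The arm miR-33-5p, a lipid-metabolism miRNA, had 21.04 nt at 30 days and 21.02 nt at 3 days. In the oxidized pair the difference at 30 minus 3 days was -0.032 nt for miR-263a-5p and -0.0049 nt for miR-33-5p. Of the 89 arms that could be read there, 3 were longer at 30 days in both pairs.

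Starts moved less than ends in the untreated libraries. No arm shifted its 5′ starts by 10 percentage points (0.00%), and 2 shifted by 5. The count rests on 56 arms, since the other 46 of the 102 had a single start among the members and could not shift. The largest shift was 9.66 points in miR-193-5p (chromosome 3L, 21574014 to 21574121, plus strand, no host gene). Its reads begin mostly at either of 2 positions, and the bases absent from the later start are in capitals in the first sequence.
miR-193-5p 22 nt: GGttgggattttttagatcagc
miR-193-5p 20 nt start +2: ttgggattttttagatcagc
miR-193-5p 22 nt start +2: ttgggattttttagatcagcag

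The later start of miR-193-5p took 40.0% of the arm at 30 days (39.1 to 40.8) and 49.6% at 3 days (49.0 to 50.2). Both starts were lower at 30 days. The 22-nt form with the earlier start had 404 RPM at 30 days and 795 RPM at 3 days, and the 20-nt form with the later start 234 RPM at 30 days and 537 RPM at 3 days. The 22-nt form with the later start was 6.48-fold lower, with 21.1 RPM at 30 days and 137 RPM at 3 days, among the lowest ratios of the sequences with at least 1000 reads. Lower still was the 21-nt form of an arm that could not be named, with 9.69 RPM at 30 days and 73.05 RPM at 3 days (7.54-fold lower). In miR-305-3p reads that begin a base early were 3.94% at 30 days and 9.01% at 3 days, and in miR-285-5p 8.69% at 30 days and 13.4% at 3 days. In miR-210-3p, an abundant miRNA needed for photoreceptor upkeep in flies, the start that lies a base later took 21.6% at 30 days and 25.8% at 3 days. This exceeds counting error, and the start shift of 4.15 points was about as large as this arm's 3′ end shift of 4.34 points. miR-2a-3p was read from positions 2 bases apart, which gives it separate seeds, and it is shown because the earlier start carries the K box seed.
miR-2a-3p 20 nt: tCACAGCCagctttgatgag
miR-2a-3p 22 nt start -2: tATCACAGccagctttgatgag

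Arm totals differed far less than single isoforms. Of 102 arms 5 were called higher (4.90%) and 3 lower (2.94%), and the median log2 ratio was 0.0052. miR-34-5p had the highest ratio, with 5918 RPM at 30 days and 2270 RPM at 3 days (2.61-fold). miR-14-3p followed with 150972 RPM at 30 days and 59567 RPM at 3 days (2.53-fold; hairpin at chromosome 2R, 9553762 to 9553824, plus strand, in an exon of the long non-coding RNA CR43651). miR-308-3p had 229 RPM at 30 days and 95.2 RPM at 3 days. At the threshold stood miR-986-5p, with 2671 RPM at 30 days and 1277 RPM at 3 days, and miR-281-2-5p, with 3772 RPM at 30 days and 1854 RPM at 3 days. Just below it, the log2 ratio was 0.95 for miR-275-5p, 0.89 for miR-956-3p and 0.88 for miR-281-3p. With TMM or median-of-ratios scaling only miR-34-5p and miR-14-3p of these 5 stayed above 2-fold. The balance turned under both, with 2 arms higher, 10 lower and a median of -0.30 with TMM, and 2 higher, 7 lower and a median of -0.26 with median-of-ratios scaling.

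The lowest totals were those of miR-31a-5p, with 2334 RPM at 30 days and 5519 RPM at 3 days (2.36-fold lower), miR-193-5p, with 780 RPM at 30 days and 1731 RPM at 3 days (2.22-fold lower), and miR-990-5p, with 267 RPM at 30 days and 576 RPM at 3 days (2.16-fold lower). In miR-31a-5p the 22-nt form had the lowest ratio, with 529 RPM at 30 days and 1573 RPM at 3 days. miR-999-3p (chromosome 3R, 21798227 to 21798331, minus strand, in an intron of CASK) had 26988 RPM at 30 days and 48064 RPM at 3 days without a shift in length. miR-9c-5p, miR-957-3p, miR-285-3p and miR-184-3p had log2 ratios of -0.80, -0.78, -0.75 and -0.72. Of these 4, miR-184-3p was also 0.77 nt shorter on average, miR-285-3p 0.38 nt and miR-957-3p 0.34 nt, while miR-9c-5p was longer.

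The listed groups of miRNAs were read against the 25.5% of all sequences called higher and the 5.29% called lower. For length they were read against the 83.3% of all arms that were shorter, and for arm totals against the 4.90% called higher. The lists were not matched to all sequences for read length. Over all members 189 of 354 sequences of 16 to 20 nt were called higher. Of the let-7 complex, whose members time metamorphosis and remain on in adult neurons, 4 of 21 sequences were called higher and 0 lower. Its arms differed little in level: let-7-5p had 5413 RPM at 30 days and 5130 RPM at 3 days, miR-125-5p 1176 RPM at 30 days and 1189 RPM at 3 days, and miR-100-5p 165 RPM at 30 days and 120 RPM at 3 days. All 3 were shorter on average at 30 days, by 0.065 to 0.20 nt. Of the miR-34 cluster 26 of 52 sequences were called higher and 0 lower, with a median of 1.02. By arm total 1 of its 5 measured arms was called higher. Its arm totals went apart, since miR-317-3p had 81555 RPM at 30 days and 101479 RPM at 3 days and miR-34-3p 479 RPM at 30 days and 645 RPM at 3 days.

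Of the neural list 34 of 124 sequences were called higher and 5 lower, close to the shares over all sequences, with a median of 0.14 that TMM and median-of-ratios scaling turn negative. Of its 13 measured arms 10 were shorter, a share no larger than the 83.3% of all arms. miR-1000-5p had 4755 RPM at 30 days and 3894 RPM at 3 days, and miR-315-5p had 8451 RPM at 30 days and 12504 RPM at 3 days. In the fat body and metabolism list 46 of 85 sequences were called higher and 0 lower, with a median of 1.09. By arm total only 1 of its 6 arms was called higher and 0 lower. Its arms include miR-278-3p, a regulator of energy balance in flies, with 8183 RPM at 30 days and 6374 RPM at 3 days, and miR-33-5p with 22012 RPM at 30 days and 14520 RPM at 3 days. Of the 85 sequences miR-8-3p supplies 24 and miR-14-3p 15. In the K box list 18 of 58 sequences were called higher and 1 lower, and 6 of 7 arms were shorter, close to the share of all arms. Among arms recalled as trimmed by Nibbler 37 of 74 sequences were called higher and 0 lower. By arm total 1 of these 6 arms was called higher. Of these arms 5 of 6 were shorter, the same share as of all arms (83.3%), and 5 of 6 shifted their lengths by at least 10 points, beside 49.0% of all arms. The exception in direction was miR-263a-5p.

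Neuronal miRNAs and the muscle miRNA miR-133-3p were present, while the muscle miRNA miR-1-3p and the markers of other tissues were scarce or absent. The 6 neuronal markers were all found, with a summed level of 26843 RPM at 30 days and 40393 RPM at 3 days, mostly from miR-957-3p. Without miR-957-3p the other 5 summed to 7520 RPM at 30 days and 7182 RPM at 3 days, so the lower sum rests on that miRNA. Both muscle markers were found, with 7057 RPM at 30 days and 7711 RPM at 3 days, nearly all from miR-133-3p. The other marker, miR-1-3p, had only 32.9 RPM at 30 days and 43.1 RPM at 3 days. Of 20 testis-enriched miRNAs 1 was among the members, at 4.73 RPM at 30 days and 9.50 RPM at 3 days, and of 6 early embryonic ones 1, at 16.03 RPM at 30 days and 9.37 RPM at 3 days. In RNA from whole heads a change in the cells present and a change of RNA per cell cannot be told apart.

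The oxidized libraries allow the same within-arm comparison in RNA of the same ages that was treated before cloning. With at least 100 reads in each, 89 of the 102 arms could be read. The mean length was shorter at 30 days in 78 of these 89 in the oxidized pair and in 76 in the unoxidized pair, and in 68 it was shorter in both. The product of those shares alone gives 66.6 arms, so this count is about what the separate counts give. The median difference was -0.17 nt in the oxidized pair. Across the 89 arms Pearson's r between these differences was 0.55 and Spearman's rho 0.56, as a description only, since arms of a library share its RNA and its preparation. Over whole libraries the oxidized pair was not shorter at 30 days, with a mean read length of 23.03 nt at 30 days and 22.74 nt at 3 days. With miR-14-3p and miR-263a-5p left out it was 22.29 nt at 30 days and 22.26 nt at 3 days. miR-316-5p had the largest shift in lengths in the oxidized pair too (56.9 points), and its 19-nt reads were 72.1% of the arm at 30 days and 16.3% at 3 days after oxidation. In miR-34-5p after oxidation 18-nt reads were 58.0% at 30 days and 39.7% at 3 days, and in miR-133-3p 21-nt reads were 66.5% at 30 days and 32.4% at 3 days. After oxidation 4 arms shifted their starts by at least 10 points, miR-193-5p by 22.7, miR-981-5p by 18.96, miR-210-3p by 17.9 and miR-993-5p by 10.6. In miR-210-3p this went against the untreated pair, with the later start at 54.5% at 30 days and 37.1% at 3 days. Relative to the most abundant sequence of the arm, 205 of 244 forms cut at the 3′ end were higher at 30 days in the oxidized pair (median 0.99), and 24 of 41 forms cut at the 5′ start (median 0.25). Without miR-8-3p 18 of 34 forms cut at the 5′ start were higher (median 0.12).

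**Figure D5:**
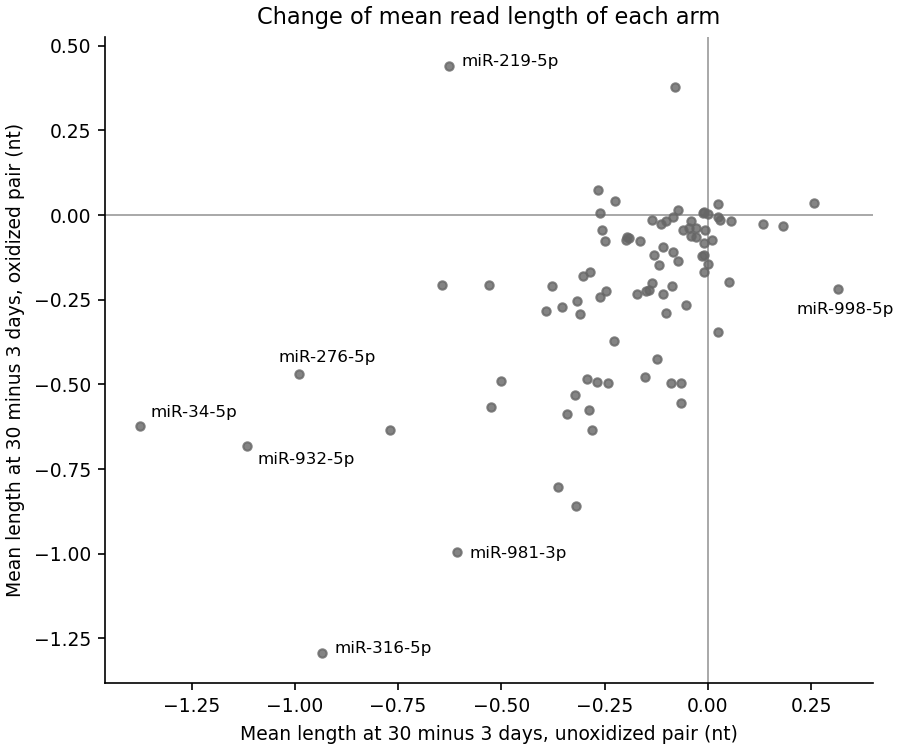
Each point is 1 of 89 arms; the horizontal axis gives its mean read length at 30 days minus 3 days in the unoxidized pair (nt) and the vertical axis the same difference in the oxidized pair (nt). Most points (68) lie below 0 on both axes, and miR-219-5p and miR-998-5p are among those with opposite signs.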

How the data were processed

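The authors deposited 1 table of read sequences and raw counts per library. Per the labels' protocols, libraries were made with a TruSeq small RNA kit. CASAVA 1.8.2, Bowtie and the dm3 build are named in the submitters' processing notes; adapter trimming and size selection are not stated there. The tables list no names or positions, and sequences were 16 to 42 nt long. Sequences listed repeatedly (165 at 30 days and 139 at 3 days, all with equal counts) were counted once.

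Sequences overlapping by at least 15 nt without mismatch, within 34 nt, were joined into arms. Names were recalled for 119 arms and inferred for 17 from pairing with a named arm, since no miRNA reference was used. Of 136 named arms 123 matched an annotated arm length within 1 nt, and in 17 of 19 hairpins with both arms recalled the arms were each other's best duplex partner in at least 1 direction (ViennaRNA 2.7.2). Hairpin coordinates are from BDGP6 by gene name. Unnamed arms have no coordinates.

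Ratios are 30 over 3 days. No test was possible with 1 library per group. Intervals were tested on simulated data. TMM came from edgeR 4.0.16. Named sequences are the 10 most abundant and the 12 highest and lowest ratios with at least 1000 reads; named arms are the 8 most extreme by each measure; listed groups add theirs. Members and lists were chosen with earlier results of these data known. The alternatives were other scalings, minima, thresholds and ways to count repeated or shared sequences.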

Additional observations from a re-analysis of the deposited data

Results flagged for a closer look

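In 5 arms with a length shift of at least 10 points the age difference in mean length had opposite signs in the unoxidized and the oxidized pair; this difference between pairs was not tested. In 3 of them, miR-278-3p, miR-305-5p and miR-306-5p, the oxidized difference was under 0.1 nt, and the other 2 are given here. For miR-219-5p, a neuronal miRNA, the mean length at 30 minus 3 days was -0.63 nt without oxidation (2038 reads at 30 days and 1883 at 3 days) and 0.44 nt with oxidation. The oxidized value rests on 428 reads at 30 days and 130 at 3 days. For miR-998-5p it was 0.31 nt without oxidation (4100 reads at 30 days and 6066 at 3 days) and -0.22 nt with oxidation (45752 reads at 30 days and 45931 at 3 days).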

How the results depend on the processing

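No alternative turned the sign of any of the 33 sequence and arm ratios past 2-fold. The scalings could not have done so, since their largest shift was -0.31 on the log2 scale. The within-arm measures do not use the scaling. With TMM scaling 111 sequences were called lower, 2 arms higher and 10 lower, and the medians were -0.063 for sequences and -0.30 for arms. With median-of-ratios scaling the values were 99 sequences lower, 2 arms higher and 7 lower, and medians of -0.019 and -0.26. Leaving the 5 most abundant sequences of either library out of the totals put the arm median at 0.091. At a 1.5-fold threshold 133 sequences were lower, 15 arms higher and 14 lower. From 20 reads together 432 sequences were higher and 96 lower. From 1000 reads, 78 of 378 sequences were higher and 21 lower. Without a filter 828 were higher and 324 lower, with the gap between short and long forms at 0.83. The number of sequences or arms entering changes with the minimum, so such counts alone do not compare the settings. Among arms of at least 100 reads together 8 were called higher and 6 lower, the median being -0.0071. Among arms of at least 10000 reads in each library 29 shifted their ends and 30 their lengths, and 50 had an earlier mean end and 50 a shorter mean length. Fewer arms entered at this minimum, so these counts cannot be set directly against those of the main minimum. Over every placed sequence 81 arms had a later mean start, against 37 of 102 arms over the members alone. The cause of this difference was not tested. At a 5-point threshold 2 arms shifted their starts, 75 their ends and 76 their lengths. With shared K box sequences divided, 1 arm, miR-2c-3p, shifted its starts. Without miR-14-3p and miR-8-3p, an alternative chosen after seeing the data, the arm median was -0.0010. Adding every listed line of repeated sequences moved no count past 1.5 times. No paired analysis was possible because each group holds 1 library. No library could be left out for the same reason.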

Other observations

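Arm choice of the hairpins can be read from the same libraries, because both arms share any scaling. For 21 hairpins with both arms above the minimum, the age change of the 5p over the 3p arm was past 2-fold in 4, and its median size was 0.33 on the log2 scale. In miR-34 the 5p arm made up 92.5% of the hairpin's reads at 30 days and 77.9% at 3 days. It took 92.7% at 30 days and 84.2% at 3 days in miR-284, and 82.1% at 30 days and 69.4% at 3 days in miR-927. In miR-14 it took 0.318% at 30 days and 0.834% at 3 days, the 3p arm being the higher one. The hairpin miR-305 came close to an even split, with the 5p arm at 47.0% at 30 days and 58.9% at 3 days. Both arms had a shorter mean length at 30 days in 14 of the 21 hairpins, a single arm in 5 and neither in 2. The 83.3% of all arms that were shorter counts arms singly and is not a like figure for both arms together.

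Over the pooled sequences of the untreated pair the last base went with the ratio. Sequences ending in A had a median log2 ratio of -0.15 (155 sequences), those ending in C 0.34 (198), in G 0.37 (220) and in T 0.32 (297). Among sequences of 20 to 23 nt endings in A had a median of -0.26, in C of 0.093, in G of 0.18 and in T of 0.13. Forms cut at the 3′ end were also set against their arm's most abundant sequence. Those ending in A then had the lowest median in the untreated pair (0.43) but the highest in the oxidized pair (1.33). First bases differed less over all lengths, with medians between 0.11 for G and 0.39 for C. Among sequences of 20 to 23 nt their medians ran from -0.071 for G to 0.29 for C, a spread closer to that of the last bases. In 68 arms with a 3′-truncated form of at least 1000 reads, truncated forms below that minimum were set aside, though some had higher ratios. The remaining truncated form with the highest ratio was 20 nt long in 27 arms, 19 nt in 18 and 21 nt in 10. Its 3′ end lacked 1 base in 23 arms, 2 in 21 and 3 in 15, beside the most abundant sequence. Forms lacking 1 base were also the most numerous among all members, 107 against 83 lacking 2 and 58 lacking 3. These counts therefore do not rank the cuts by their change.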
